A study of Homo sapiens with 6 samples.

Results

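The proteasome genes are all genes on the array whose symbol is PSMA, PSMB, PSMC, PSMD, PSME, PSMF or PSMG followed by a number, each represented by its probe set with the highest mean over the 6 arrays. There were 42 of them, of 19775 genes named on the array, on 81 probe sets, and 39 passed the filter on low signals and were tested, of 13781 genes tested in all. PSMA8, PSMB8 and PSMB9 did not pass that filter. PSMA6 and PSME2 lie only on probe sets listed with a second gene, PSMB11, PSMC5, PSMD7 and PSMD13 have no probe set in the annotation used, and these 6 genes are not analysed here.

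The RNA came from Hep3B, a human hepatocellular carcinoma cell line, in a comparison that asks how cells silenced for SDHB, a subunit of the mitochondrial enzyme succinate dehydrogenase, differ from control cells. The control was clone 2 of cells carrying plasmid pU6, and the silenced group was clone D20 of cells carrying plasmid siSDHB, each measured on 3 Affymetrix arrays (A, B and C). All cells grew in medium with G418 at 400 µg/ml until nearly confluent. Each group is 1 clone, so the silencing and the clone cannot be told apart, and the labels leave unsaid whether the arrays are separate cultures. The p-values therefore rest on the scatter among arrays alone, which may be technical. The level of SDHB itself was not checked here.

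The proteasome degrades proteins that carry chains of ubiquitin. Its barrel, the 20S core, is built of rings of alpha (PSMA) and beta (PSMB) subunits, and the beta subunits PSMB5, PSMB6 and PSMB7 cut the substrate. The 19S cap recognises ubiquitin, unfolds the substrate with a ring of ATPases (PSMC) and feeds it into the barrel with the help of other subunits (PSMD). In cells exposed to interferon-gamma the inducible subunits PSMB8, PSMB9 and PSMB10 take the places of PSMB5, PSMB6 and PSMB7 to form the immunoproteasome, which makes peptides for MHC class I.

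The deposited value is a MAS5 signal on a linear scale, and the trimmed mean was 500.1 on every array. The log2 fold changes below are D20 minus control on the log2(signal + 16) scale, and a gene is said to have risen or fallen where its Benjamini-Hochberg adjusted p in limma, over all probe sets tested, was below 0.05. Across probe sets, Pearson's r of the log2 values lay at 0.964 to 0.967 for pairs of control arrays, 0.953 to 0.962 for pairs of D20 arrays and 0.88 to 0.89 for pairs from different clones. The 3'/5' signal ratio of the GAPDH control was 1.08 to 1.15 on the control arrays and 1.11 to 1.25 on the D20 arrays, and that of ACTB 1.42 to 1.90 and 1.40 to 1.68. Of 13 hepatocyte and hepatoma markers named, 10 fell and 2 rose in D20, 76.9% and 15.4% against 20.8% and 23.7% of all genes. The 2 that rose were FGB (1.705) and FGA (1.09), and ALB was at a mean of 43680 in control and 43930 in D20. The summed signal of the 13 markers was 326600 to 333300 on control arrays and 140500 to 154000 on D20 arrays. The largest of these changes were AFP (-5.62), APOA1 (-3.33, or -1.66 without probe sets ending in _s_at or _x_at), TTR (-2.99) and TF (-2.37). Of markers of other cell types, PTPRC of blood cells was at 36.3 and 36.0, and the summed signal of 10 fibroblast markers was 1374 to 1541 on control and 4344 to 5149 on D20 arrays, with COL1A1 higher and LUM and PDGFRA lower. Most of the D20 sums was COL1A1 alone, at 4230.5, 3670.1 and 3439.5 on the D20 arrays. COL1A1 was under the filter's floor in control, with a mean signal of 1.23 against 3780.0 in D20. With a pseudocount of 1 a different COL1A1 probe set had the highest mean, and that one was at 0.35 and not called. LUM was under the filter's floor in D20, at 8.3 against 160.4 in control. PDGFRA was at -0.58, or at 0.71 and not called with its probe sets averaged. The sum of 8 blood cell markers was 3928 to 5275 on control and 219.7 to 316.4 on D20 arrays, with LYZ lower, at a mean of 11.8 in D20, under that floor, against 4332 in control. The sum of 8 endothelial markers was 191.1 to 272 and 381.9 to 460.0, with PECAM1 (1.63) higher. PECAM1, at a mean of 62.5 in control and 213.1 in D20, was the 1 endothelial marker tested. Of the 8, 7 were under the filter's floor in control and 6 in D20. The part of these markers in the results on the proteasome was not tested.

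About as many proteasome genes were called lower in D20 as were not, and few were called higher. Of the 39 genes tested 20 fell, 51.3% of them against 20.8% of all genes tested, and 3 rose, 7.69% against 23.7%. The remaining 16 did not pass the test. The 3 D20 arrays all lay below the 3 control arrays for 21 proteasome genes, against 25.3% of all genes, and all above for 6, against 28.8%. The median log2 fold change was -0.27, against 0.04 over all genes tested. The changes were small, since the median absolute log2 fold change was 0.28 against 0.44 over all genes, and 1 gene, PSMC3, fell at least 2-fold, which 6.57% of all genes did.

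Brightness and scaling bear on these counts. The median signal of the proteasome genes was 5676 against 611.2 for all genes tested, and 38 of the 39 had a mean signal of at least 1000. Among the 5269 genes that bright, a limit chosen after seeing the data, 33% were lower and 25.7% higher, and their median was -0.06. The poly-A spike-in controls were dimmer on the D20 arrays, with a mean log2 signal of 8.97 to 9.03 against 9.14 to 9.32. Scaled on those controls, the median of all genes moved to 0.25, and 7 proteasome genes were lower and 8 higher, against 12.3% and 32.8% of all genes. The distance of the proteasome median from that of all genes was -0.31 on the deposited scale, -0.31 with median centring, -0.30 with spike-in scaling and -0.14 with quantile normalization.

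**Figure D1:**
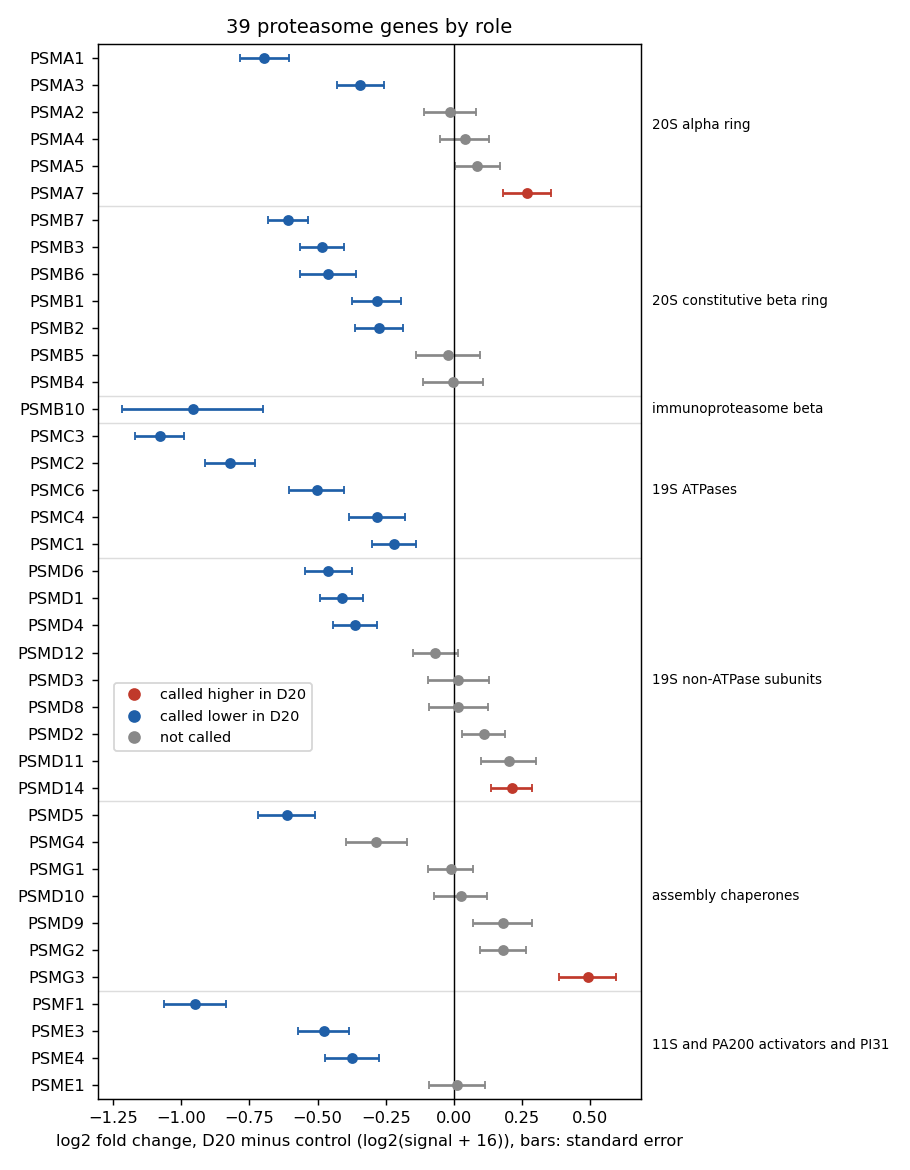
Log2 fold change (horizontal axis, D20 minus control, log2(signal + 16)) of the 39 proteasome genes tested, grouped by role, with the standard error as the bar and 3 arrays per clone. All 5 ATPases of the 19S cap lie left of 0, the alpha subunits lie on both sides, and PSMC3 (-1.08), PSMB10 (-0.96) and PSMF1 (-0.95) lie furthest left.

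The ATPases of the 19S cap, which pull the substrate open and thread it into the core, had the lowest median of the roles with more than 1 gene tested. All 5 measured here, PSMC1, PSMC2, PSMC3, PSMC4 and PSMC6, fell, against 20.8% of all genes. Each of the 5 had its 3 D20 arrays below its 3 control arrays, against 25.3% of all genes. Their median log2 fold change was -0.50, and with spike-in scaling it was -0.28, with 2 of the 5 (PSMC2 and PSMC3) lower and PSMC1 at 0.00. Of all genes 12.3% were lower with that scaling, and their median was 0.25. With no variance trend 3 of the 5 were lower, PSMC1 and PSMC4 being lost. PSMC3 had signals of 4700.0, 4488 and 4597 on the control arrays and 2300.2, 2198 and 2011 on the D20 arrays. The highest D20 array lay far below the lowest control array. The log2 fold change was -1.08 ± 0.09 (SE), with an adjusted p of 9.5e-07 (limma, Benjamini-Hochberg). PSMC2 had 10015, 10966 and 12597 in control and 6434, 6038 and 6445 in D20, which is -0.82 ± 0.09 (SE) on the log2 scale. PSMC6 had 5060.0, 4699 and 4942 in control and 3938, 3066 and 3401 in D20, which is -0.50 ± 0.10 (SE) on the log2 scale. The groups do not overlap for either. PSMC4 (-0.28, adjusted p = 0.046) and PSMC1 (-0.22, adjusted p = 0.047) lay close to the threshold of limma with Benjamini-Hochberg adjustment. PSMC1 did not pass it when any 1 array was left out (adjusted p 0.065 to 0.17), and PSMC4 did not without control replicate B (0.071) or C (0.21) or D20 replicate A (0.064) or C (0.16), by limma.

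The other subunits of the 19S cap moved in both directions. Of 9 tested 3 fell, 1 rose and 5 did not pass the test, with a median of 0.02. The shares were 33.3% lower and 11.1% higher, against 20.8% and 23.7% of all genes. Among genes with a mean signal of at least 1000 they were 33% and 25.7%, so the share that fell was near that of bright genes. PSMD6 (-0.46) and PSMD1 (-0.41), a scaffold of the base, fell, as did PSMD4 (-0.36), a ubiquitin receptor. PSMD14, the deubiquitinase that removes the ubiquitin chain, rose by 0.21 from a mean signal of 7931 ± 180.9 (SD, n = 3) to 9186 ± 271.8 (adjusted p = 0.04, limma with Benjamini-Hochberg). That call was lost when any 1 array was left out (adjusted p 0.051 to 0.14, limma) and with median centring, where the log2 fold change was 0.09. With no variance trend the calls of PSMD14 and PSMD4 were both lost. PSMD2 (0.11), PSMD3 (0.02), PSMD8 (0.02), PSMD11 (0.20) and PSMD12 (-0.07) did not pass the test. Scaled on the spike-in controls, PSMD2, PSMD11 and PSMD14 were higher and none of the 9 was lower. With that scaling 32.8% of all genes were higher and 12.3% lower. The median was then 0.24 for these subunits and 0.25 for all genes.

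Of the 20S core, the beta ring was lower and the alpha ring was mixed. Among the 7 constitutive beta subunits 5 fell and 0 rose (limma), with a median of -0.28. The shares were 71.4% and 0%, against 20.8% and 23.7% of all genes. At an unadjusted p under 0.05 the counts were also 5 and 0. With no variance trend they were 2 and 0 (PSMB3 and PSMB7 lower), where calls over the whole array were 9609 probe sets against 11952. With spike-in scaling they were 1 and 0 (PSMB7 lower), with a median of -0.06. Of all genes 12.3% were lower and 32.8% higher with that scaling, and their median was 0.25. PSMB7, which carries the trypsin-like site, had signals of 11924, 12450 and 12965 in control and 8312, 8260.0 and 7894 in D20, 1.52-fold lower with a log2 fold change of -0.61 ± 0.07 (SE, adjusted p = 3.3e-05, limma with Benjamini-Hochberg). That change was -0.39 with spike-in scaling and -1.22 averaged over both probe sets. The second probe set was dim, at 162.6, 226.4 and 186.2 in control and 88.0, 5.7 and 71.3 in D20 (-1.82 ± 0.53, SE). PSMB6, which carries the caspase-like site, had 7459, 8216 and 7506 in control and 4969, 6547 and 5393 in D20 (-0.46 ± 0.10, SE). PSMB3, a structural subunit, had 9343, 10008 and 9495 in control and 6655, 7461 and 6516 in D20 (-0.48 ± 0.08, SE). For these 3 genes no D20 array reached the lowest control array. PSMB5, which carries the chymotrypsin-like site, overlapped between clones: it had 8687, 8489 and 8495 in control and 6925, 10298 and 8402 in D20, where array A was the lowest and array B the highest of all 6. Its log2 fold change was -0.02, with a 95% interval of -0.28 to 0.23. PSMB1 (-0.28) and PSMB2 (-0.27) fell, and PSMB4 did not pass the test (-0.0028). PSMB1 did not pass without control replicate A (adjusted p = 0.079), B (0.065) or C (0.082), and PSMB2 did not without control replicate A (0.062) or B (0.11) or D20 replicate A (0.053) or C (0.11), by limma.

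Of the 6 alpha subunits tested, which form the gate of the barrel, 2 fell and 1 rose, with a median of 0.01. The shares were 33.3% and 16.7%, against 20.8% and 23.7% of all genes. Among genes with a mean signal of at least 1000 they were 33% and 25.7%, so here too the share that fell was near that of bright genes. With spike-in scaling 1 was lower (PSMA1) and 2 higher (PSMA5 and PSMA7), with a median of 0.23. Over all genes that scaling gave 12.3% lower and 32.8% higher, with a median of 0.25. PSMA1 had signals of 14648, 13622 and 14476 in control and 8089, 9941 and 8455 in D20, so that the groups were well apart at -0.69 ± 0.09 (SE) on the log2 scale. PSMA3 fell by 0.34, though it was not called with spike-in scaling (-0.12) or with no variance trend. The average of its 3 probe sets was at 0.14 and not called. Its brightest had a mean of 6966 in control and 5496 in D20, while the others were dim, at 81.1 and 65.6 in control and 122.0 and 77.0 in D20. PSMA7 rose by 0.27 (adjusted p = 0.03, limma with Benjamini-Hochberg). PSMA7 did not pass without control replicate A (adjusted p = 0.17) or C (0.055), or D20 replicate B (0.069) or C (0.075), or with median centring, where it was at 0.15, by limma. PSMA2 (-0.01), PSMA4 (0.04) and PSMA5 (0.09) did not pass. PSMA8, an alpha subunit of testis, was dim in both clones, at 5.2, 45.6 and 10.8 in control and 10.4, 2.7 and 4.6 in D20.

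The 3 inducible subunits of the immunoproteasome went different ways. PSMB9 was near 0 in the control clone, at 11.5, 3.1 and 3.0, and higher in D20, at 112.3, 154.6 and 97.1. All its D20 arrays lay above all its control arrays. It failed the filter on low signals and so was not tested, while its mean log2 values differed by 2.65, a size that depends on the pseudocount (1.40 with 64). Without the filter limma gave an adjusted p of 0.0015 (Benjamini-Hochberg). PSMB8 had 5.8, 12.1 and 3.2 in control and 73.4, 7.6 and 94.6 in D20, so that D20 array B lay within the control range and the groups overlapped (limma without the filter, adjusted p = 0.11). PSMB10 had 266.3, 237.8 and 372.6 in control and fell to 173.3, 133.3 and 118.5 in D20, or -0.96 ± 0.26 on the log2 scale (SE, adjusted p = 0.011, limma with Benjamini-Hochberg). Its groups did not overlap, and without control replicate C it did not pass (-0.78, adjusted p = 0.071, limma).

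Each inducible subunit was then set against the constitutive one whose place it takes, as the log2 difference within each array, of which only the change between clones is read. PSMB9 minus PSMB6 was -8.09, -8.75 and -8.63 on the control arrays and -5.28, -5.27 and -5.58 on the D20 arrays, a change of 3.11. The two-sided exact permutation test gave p = 0.1, the smallest that 3 against 3 arrays allow, so that none of these 3 tests could pass 0.05, and 0.3 after Benjamini-Hochberg adjustment over the 3 pairs. The size was 4.81 with a pseudocount of 1 and 1.86 with one of 64. PSMB8 minus PSMB5 changed by 1.46, with D20 arrays at -6.28, -8.77 and -6.25 against control arrays at -8.64, -8.24 and -8.79 (exact permutation p = 0.3, adjusted 0.3). Without D20 replicate B that change was 2.29. PSMB10 minus PSMB7 changed by -0.35 (exact permutation p = 0.2, adjusted 0.3), and with the mean of each gene's probe sets the change was 0.26. That mean takes in the dim second probe set of PSMB7.

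**Figure D2:**
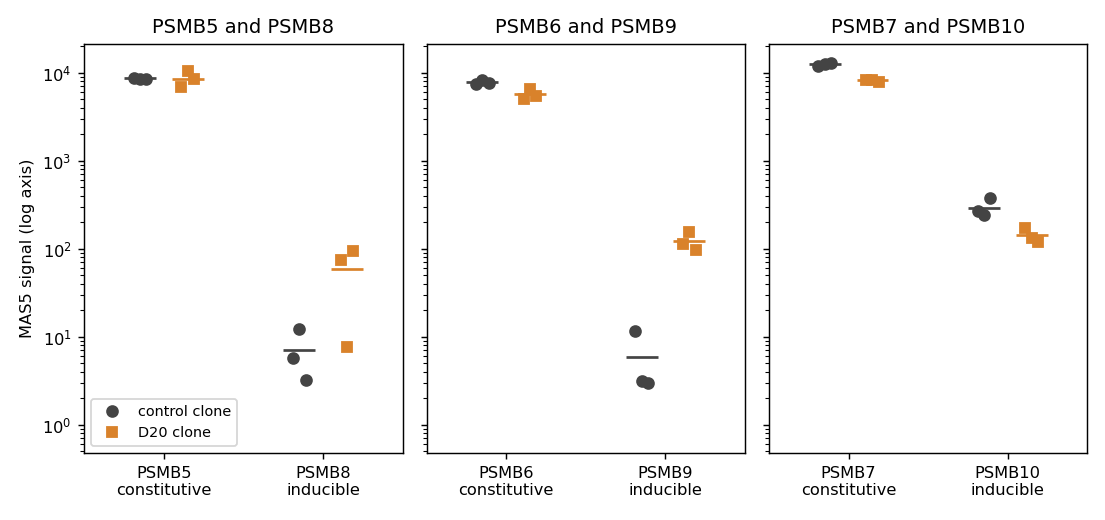
MAS5 signal (vertical log axis) of the constitutive catalytic subunits and the inducible ones that replace them, with 1 point per array and a line at the mean of each clone (circles control, squares D20). PSMB9 is at 3.0 to 11.5 in control and 97.1 to 154.6 in D20, D20 array B of PSMB8 sits at 7.6 among the control arrays, and PSMB7 and PSMB10 are both lower in D20.

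The promoter windows of these subunits are shown because the 3 genes moved differently, with that of PSMC3 as the ATPase that fell most. They are 300 bases of RefSeq, from 250 before to 50 after the annotated start, read 5′ to 3′ on the gene's strand in build GRCh38.p14. PSMB8 is at chr6:32843998-32844297 (minus strand), PSMB9 at chr6:32853942-32854241 (plus), PSMB10 at chr16:67936801-67937100 (minus) and PSMC3 at chr11:47426390-47426689 (minus). Capitals mark matches, on either strand, to TGACNNNGC (the core of the antioxidant response element), the core of the interferon-stimulated response element (GAAA, any pair of bases, GAAA), TTCNNNGAA (the gamma-activated site) and CCAAT, and no 2 matches overlap here.
PSMB8: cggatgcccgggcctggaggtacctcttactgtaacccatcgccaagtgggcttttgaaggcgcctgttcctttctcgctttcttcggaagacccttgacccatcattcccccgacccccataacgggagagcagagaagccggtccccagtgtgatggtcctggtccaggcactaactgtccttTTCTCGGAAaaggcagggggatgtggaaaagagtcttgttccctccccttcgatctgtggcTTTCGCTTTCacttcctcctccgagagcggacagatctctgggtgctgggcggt
PSMB9: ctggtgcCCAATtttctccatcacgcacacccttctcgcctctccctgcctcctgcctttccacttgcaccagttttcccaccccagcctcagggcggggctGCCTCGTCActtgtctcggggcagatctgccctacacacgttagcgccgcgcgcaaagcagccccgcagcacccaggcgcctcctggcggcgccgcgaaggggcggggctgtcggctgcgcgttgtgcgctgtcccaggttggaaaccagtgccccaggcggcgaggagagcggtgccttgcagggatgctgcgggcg
PSMB10: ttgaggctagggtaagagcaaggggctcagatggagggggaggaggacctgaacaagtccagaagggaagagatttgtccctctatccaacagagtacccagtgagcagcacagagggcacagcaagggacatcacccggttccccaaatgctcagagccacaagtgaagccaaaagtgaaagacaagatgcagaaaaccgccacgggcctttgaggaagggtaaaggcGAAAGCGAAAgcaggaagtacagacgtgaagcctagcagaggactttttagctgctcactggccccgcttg
PSMC3: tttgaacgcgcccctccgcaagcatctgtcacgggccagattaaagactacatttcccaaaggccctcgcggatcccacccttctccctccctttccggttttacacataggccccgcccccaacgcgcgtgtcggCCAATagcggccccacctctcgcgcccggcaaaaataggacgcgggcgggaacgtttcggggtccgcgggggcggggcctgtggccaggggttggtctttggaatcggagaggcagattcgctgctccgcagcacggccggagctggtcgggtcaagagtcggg
The windows of PSMB8 and PSMB10 hold the interferon-stimulated element core, which lies on the opposite strand in that of PSMB8, and that of PSMB8 also holds TTCNNNGAA. That of PSMB9 holds TGACNNNGC, on the opposite strand, and CCAAT, and that of PSMC3 holds CCAAT. A second RefSeq window of PSMB8 holds none of the 4. These matches describe the letters of the windows and nothing about binding in these cells.

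Over the proteasome genes as a whole, 36 of the 42 matched a promoter window. TGACNNNGC, which is bound by NFE2L1 and NFE2L2, was in a window of 13 of them, 36.1% against 16.1% of the 27305 genes with a window. It was in 5 of the 16 genes with a window that fell and in 7 of the 17 other tested genes. The interferon-stimulated element core was in 6 of the 36 (PSMA4, PSMB4, PSMB8, PSMB10, PSME1 and PSMG4), 16.7% against 4.38%, TTCNNNGAA in 8 (22.2% against 9.38%) and CCAAT in 17 (47.2% against 39.7%). The 27305 genes outnumber the 19775 named on the array, so they include genes not analysed here and were not limited to those tested. Some genes have more than 1 window, and no test was made of these shares.

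Among the activators and the inhibitor that dock on the core, 3 of 4 fell and 0 rose (limma), with a median of -0.43. The shares were 75% and 0%, against 20.8% and 23.7% of all genes. At an unadjusted p under 0.05 the counts were also 3 and 0, and with no variance trend 2 and 0, PSME4 being lost (adjusted p = 0.072). PSMF1, which encodes PI31, a protein that binds the core and was described as its inhibitor, had signals of 2686, 3002 and 2792 in control and 1619, 1525 and 1244.0 in D20, or -0.95 ± 0.11 on the log2 scale (SE, adjusted p = 2.6e-05, limma with Benjamini-Hochberg). The clones were well apart, and all 4 of its tested probe sets fell. PSME3, the nuclear activator REG gamma, had 4575, 4530 and 4534 in control and 3410.1, 3495 and 2905 in D20, or -0.48 ± 0.09 (SE) on the log2 scale. That fall was seen by 1 of its 4 tested probe sets, and the mean of the 4 was at -0.12 (limma, adjusted p = 0.4). PSME4, the activator PA200, fell by 0.37. PSME1, an interferon-inducible subunit of the 11S activator, overlapped, with 3315, 3127 and 3296 in control and 3658, 3348 and 2850 in D20. It was at 0.01 on the log2 scale with a 95% interval of -0.21 to 0.23. With spike-in scaling PSMF1 alone of the 4 was lower, and their median was -0.20. Of all genes 12.3% were lower with that scaling, and the median of all genes was 0.25.

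Few of the assembly chaperones were called. PSMG1 to PSMG4 pair up to build the alpha ring, and PSMD5, PSMD9 and PSMD10 hold ATPases during assembly of the cap. Of the 7, PSMG3 rose, PSMD5 fell and 5 did not pass the test. That is 14.3% each way, against 23.7% higher and 20.8% lower over all genes. PSMG3 had signals of 1607, 2013 and 1823 in control and 2424, 2589 and 2619 in D20, with the groups apart and a log2 fold change of 0.49 ± 0.11 (SE, adjusted p = 0.0026, limma with Benjamini-Hochberg). PSMG4, its partner, was at -0.28 and missed the threshold (adjusted p = 0.061), though it passed with median centring (-0.40, adjusted p = 0.02) and without D20 replicate A (-0.36, 0.035), by limma. PSMD5 had 1969, 2108 and 2074 in control and 1463, 1328 and 1224.0 in D20, again with no overlap, or -0.61 ± 0.10 (SE) on the log2 scale (-0.39 with spike-in scaling). PSMG1 (-0.01), PSMG2 (0.18), PSMD9 (0.18) and PSMD10 (0.03) did not pass, and with spike-in scaling PSMG2 and PSMD9 were higher, as was PSMG3. With that scaling 32.8% of all genes were higher.

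Probe sets of 1 gene did not always move alike. Of 19 proteasome genes with more than 1 tested probe set, all of them passed in 1 direction for 7 (PSMA1, PSMA7, PSMB7, PSMC2, PSMD1, PSMD4 and PSMF1) and none passed for 4 (PSMA2, PSMA5, PSMD11 and PSMG4). PSMB4 had its brightest probe set at -0.0028, another higher at 0.32 and the last lower at -0.996, where the signal went from a mean of 4241 to 2118. PSMD10 was at 0.03 on its brightest probe set and at 0.76 on the other, which passed, and PSMD12 at -0.07 and at 0.58, which passed, with the average of both called higher at 0.26. The other 5 of these 19 had some probe sets that passed in 1 direction. In these genes the value depends on which probe set is read, and MAS5 signals of different probe sets are not on 1 scale.

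**Figure D3:**
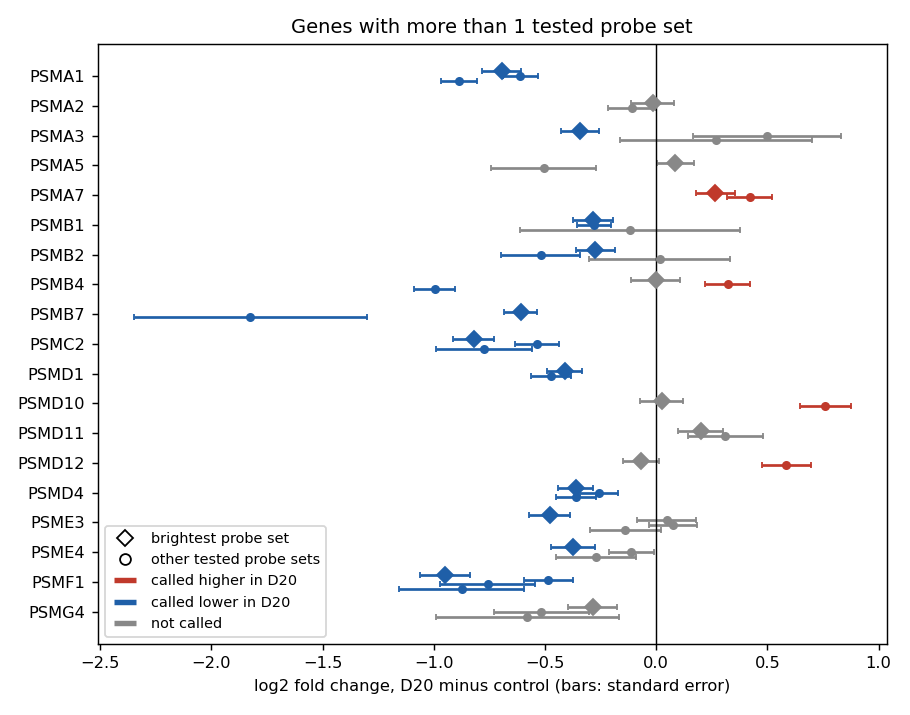
Log2 fold change (horizontal axis, D20 minus control, bars the standard error) of each tested probe set of the 19 proteasome genes with more than 1, with a diamond for the brightest and circles for the others, in blue where it was called lower, red higher and grey not called. PSMB4 has called probe sets on both sides of 0, at -0.996 and 0.32, while those of PSMF1 all lie left of 0.

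The genes around a member were compared through the median of the 10 nearest tested genes, 5 on each side in the order of RefSeq (7 in all for PSMB1). Of the 20 proteasome genes that fell 11 had a median of neighbours below 0, a share not computed over all genes. The lowest were at PSMC3 (-0.70), PSMD6 (-0.51), PSMB7 (-0.48) and PSMC2 (-0.34). The highest were at PSMA3 (0.35), PSMB1 (0.34), PSMD4 (0.28) and PSMB3 (0.25). For PSMF1 the median of neighbours was -0.16, for PSMA1 0.00 and for PSMD5 -0.19. PSMB8 and PSMB9, which lie close together in the MHC region, shared a median of neighbours of 0.91. The part of these neighbourhoods in the changes of the members was not tested.

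Of 12 proteasome proteins without a PSM symbol 7 fell, 58.3% against 20.8% of all genes, and 1 rose, 8.33% against 23.7%, with a median of -0.32. The count of lower genes depended on the setting, with 3 lower and 1 higher with no variance trend and 2 lower and 2 higher with spike-in scaling. Spike-in scaling gave 12.3% lower and 32.8% higher over all genes. ECPAS, an adaptor that holds the cap and core together, went from a mean signal of 2024 to 1025 (-0.98, or -0.54 averaged over its probe sets), and UCHL5, a deubiquitinase of the cap, from 2679 to 1473 (-0.86, or -0.49 averaged), though its probe set that does not end in _s_at or _x_at was at 0.41 and not called. TXNL1, a thioredoxin-like protein bound to the cap, fell by 0.42, though not with spike-in scaling (-0.20) or averaged over its probe sets (-0.13). PAAF1, a chaperone that binds ATPases, rose by 0.89, but was not called when its probe sets were averaged (0.47, adjusted p = 0.12, limma) or when those ending in _s_at or _x_at were left out (0.05). POMP, the chaperone of the beta ring, was at -0.33 and fell too, as did ADRM1, a ubiquitin receptor, at -0.32.

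NFE2L1 encodes NRF1, the factor that restores proteasome gene transcription when the proteasome is impaired, and its transcript rose. It had signals of 3030.4, 2916 and 2563 in control and 5897, 6188 and 5549.5 in D20, or 1.05 ± 0.09 on the log2 scale (SE, adjusted p = 1.7e-06, limma with Benjamini-Hochberg), and no D20 array came near the control range. VCP, the ATPase that pulls NRF1 out of the membrane among many other clients, went from a mean of 4924 to 2532 (-0.96, or -0.50 without probe sets ending in _s_at or _x_at). NFE2L2, which encodes NRF2, was at 0.14 and did not pass the test. Of the 7 genes tested around NRF1, 2 rose and 2 fell, 28.6% each way against 23.7% and 20.8% of all genes, the others called being the partners MAFF (0.79) and MAFG (-0.50). Scaled on the spike-in controls, MAFG was at -0.28 and not called, as without control replicate A (-0.43, adjusted p = 0.059, limma), and its averaged probe sets gave 0.64. With that scaling 5 of the 7 were higher and 1, VCP, lower, against 32.8% and 12.3% of all genes.

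Upstream of the proteasome, 5 of 9 genes for ubiquitin, its activation and the shuttles that carry substrates fell, 55.6% against 20.8% of all genes, and 2 rose, 22.2% against 23.7%. With spike-in scaling 3 were lower and 3 higher, against 12.3% and 32.8% of all genes. ZFAND2A (-1.26) and ZFAND5 (-0.89), zinc-finger proteins that bind the proteasome, and the shuttle UBQLN4 (-0.89) fell most, and the shuttle UBQLN2 rose by 0.55, though it was at 0.28 and not called without probe sets ending in _s_at or _x_at. ZFAND5 was not called when its probe sets were averaged (-0.35, adjusted p = 0.061, limma), and was at 0.91, not called, without such probe sets. UBB, a polyubiquitin gene, was at 38110 in control and 40810 in D20 and did not pass (0.09).

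Genes of interferon signalling and MHC class I presentation, the setting in which the immunoproteasome works, were higher or not called. Of 17 tested 8 rose, 47.1% against 23.7% of all genes, and 0 fell (limma), against 20.8%, with a median of 0.44. At an unadjusted p under 0.05 the counts were 10 and 0, and under the 3 other scalings 7 to 12 were higher and 0 lower, the 12 with spike-in scaling, where 32.8% of all genes were higher. JAK2, a kinase of the interferon receptor, was lower on all 3 D20 arrays (-0.56, adjusted p = 0.19, limma) and was the 1 gene called lower with no variance trend. TAP1, which pumps peptides into the endoplasmic reticulum and lies beside PSMB9, had signals of 109.7, 109.9 and 21.5 in control and 303.2, 354.5 and 298.9 in D20, or 1.99 ± 0.42 on the log2 scale (SE, adjusted p = 0.0022, limma with Benjamini-Hochberg). Without control replicate C, the lowest array, it was at 1.41. HLA-C, whose probe sets can also bind transcripts of other class I genes, rose by 1.09, IRF9, a factor of the interferon response, by 0.77, and TAP2 by 0.63. TAP2 was not called when its probe sets were averaged (0.45, adjusted p = 0.11, limma). IRF1, which drives PSMB9 and TAP1 after interferon-gamma, was at 0.12 and B2M at 0.05, and neither passed.

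**Figure D4:**
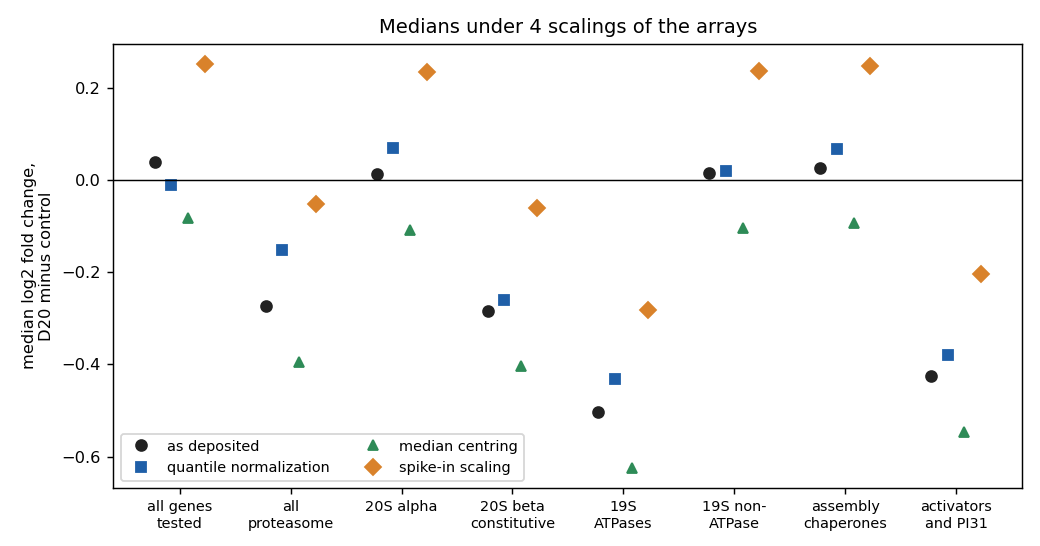
Median log2 fold change (vertical axis, D20 minus control) of all genes tested, of the 39 proteasome genes and of their roles, under the deposited scale and 3 other scalings of the arrays. The ATPases stay below 0 in all 4, from -0.62 with median centring to -0.28 with spike-in scaling, while the alpha ring is on either side of 0, from -0.11 to 0.23. The median of all genes moves as well, from -0.08 with median centring to 0.25 with spike-in scaling. Measured from it, the ATPases lie at -0.54 to -0.42 and the alpha ring at -0.03 to 0.08.

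Read across the roles, core and cap gave like counts: 7 of 13 genes of the constitutive core fell and 1 rose, with a median of -0.27, and 8 of 14 of the cap fell and 1 rose, with a median of -0.25. The shares that fell were 53.8% and 57.1%, against 20.8% of all genes. The shares that rose were 7.69% and 7.14%, against 23.7%. With spike-in scaling 2 were lower and 2 higher in the core (median -0.05), and 2 lower and 3 higher in the cap (median -0.03). Over all genes that scaling gave 12.3% lower and 32.8% higher, with a median of 0.25. The contrast lay within each, between ATPases and other subunits of the cap and between beta and alpha subunits of the core, and it was not tested. Of the 20 genes that fell, PSMA1, PSMB7, PSMC2, PSMC3, PSMD5 and PSMF1 passed in the same direction under every alternative that gave them a value, and of the 3 that rose, PSMG3 did.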

How the data were processed

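RNA of both Hep3B clones was hybridised to 6 Affymetrix arrays (HG-U133 Plus 2.0). The deposited intensity values are linear signals per probe set, made with MAS5 per the submitters' processing notes, of which the sources used here give neither version nor scaling target. Equal trimmed means point to a common scaling, so a shift shared by most transcripts is not seen. Probe sets with 1 symbol took it from GEO's annotation of the platform, with Entrez identifiers giving the current symbol (41037 of 41091), and gene order and promoters came from RefSeq GRCh38.p14.

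Signals were turned into log2(signal + 16), which understates changes of dim genes. The 62 control probe sets and the 40% with the lowest mean (below a signal of 43.2) were left out, and 32768 were fitted with limma 3.58.1 in R 4.3.3 (variance trend, two-sided, Benjamini-Hochberg, 0.05), all 6 arrays and no covariate. Exact permutation tests used scipy 1.17.1. The fit was tested on simulated data. Values in every array are given for the 12 called members with the largest changes, the catalytic subunits PSMB5 to PSMB10 and PSME1, and in the other lists up to 4 called genes with the largest changes are named, with ADRM1, POMP, NFE2L2, UBB, IRF1, B2M and JAK2 added after their values were seen. The members and lists were chosen with earlier results of these data known. Alternatives were other pseudocounts, filters, scalings and probe sets, no variance trend, a replicate block and each array left out. The number of arrays limits the precision.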

Additional observations from a re-analysis of the deposited data

How the results depend on the processing

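The 20 proteasome genes lower in D20 became 7 with spike-in scaling, 12 with no probe set whose ID ends in _s_at or _x_at (where 14 of the 20 had a value) and 12 with no variance trend, and ranged from 16 to 19 when 1 array was left out. The 3 higher became 6 with quantile normalization, 1 with median centring, 8 with spike-in scaling, 5 with the mean of probe sets and 1 with no variance trend, and ranged from 1 to 2 with 1 array left out. The median of the proteasome genes, -0.27, was -0.15 with quantile normalization, -0.39 with median centring, -0.0517 with spike-in scaling and -0.0651 without _s_at and _x_at probe sets, and ranged from -0.28 to -0.21 with 1 array left out. The median without _s_at and _x_at probe sets is over fewer genes, and PSMC3 and PSMA1 are not among them. Calls over the whole array, 11952, fell to 7098 with the mean of probe sets, a fit in which each gene is 1 value. They were 9609 with no variance trend, and ranged from 9710 to 11315 with 1 array left out.

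Some values changed sign. PSMB5 was at 0.0907 with quantile normalization and 0.20 with spike-in scaling, and ranged from -0.1654 (without D20 replicate B) to 0.12 (without D20 replicate A) with 1 array left out. PSME1 was at -0.11 with median centring, and ranged from -0.0706 (without D20 replicate A) to 0.1087 (without D20 replicate C). With spike-in scaling PSMC1 was at 0.0022, PSMA2 at 0.2076, PSMB4 at 0.2194, PSMD12 at 0.1525 and PSMG1 at 0.2089. With quantile normalization PSMB4 was at 0.1122 and PSMG1 at 0.0668. With median centring PSMA4 was at -0.0809, PSMA5 at -0.0344, PSMD2 at -0.0113, PSMD3 at -0.1042, PSMD8 at -0.1035 and PSMD10 at -0.0946. With 1 array left out PSMA2 ranged from -0.1061 to 0.0714, PSMA4 from -0.0492 to 0.0874, PSMB4 from -0.119 to 0.076, PSMD3 from -0.0529 to 0.1126, PSMD8 from -0.085 to 0.0862, PSMD10 from -0.0268 to 0.0757 and PSMG1 from -0.0559 to 0.0347. With the mean of probe sets PSMA3 was at 0.14, PSMA5 at -0.21, PSMD12 at 0.26 (called), MAFG at 0.64 (called), PDGFRA at 0.71 and PSMB10 minus PSMB7 at 0.26. Without _s_at and _x_at probe sets PSMB2 was at 0.0163, UCHL5 at 0.41 and ZFAND5 at 0.91. The cause was not tested. Of the values of single proteasome genes under the alternatives, 538 kept direction and call, 65 lost the call, 14 gained it and 39 changed sign, 35 of these in 12 genes not called on either side. The recomputed medians were added after seeing the data.

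PSMG4 was also called with the 60% lowest left out (adjusted p = 0.046) and with the replicate block (0.035), by limma. Deviations of same-lettered arrays had r = -0.02, 0.05 and 0.01, and those of arrays with unlike letters had r of -0.06 to 0.05. These values cannot show whether a letter stands for a shared batch or culture. With the replicate block 21 proteasome genes were lower and 3 higher, and 12557 probe sets were called over the whole array, against 11952 without it.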
